A study of Mus musculus with 28 samples.

Results

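Hes1, Hey1 and Heyl encode basic helix-loop-helix repressors that are switched on when a Notch receptor is cleaved and its intracellular part joins the DNA-binding protein RBPJ. Notch signalling is known for keeping satellite cells, the resident stem cells of muscle, quiescent, and it opposes the myogenic activity of MyoD, a transcription factor able to convert fibroblasts to muscle. Hes1 is the widely used Notch target of many tissues, and Hey1 and Heyl are the targets most often named in quiescent satellite cells.

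Open chromatin around these genes was read from ATAC-seq peak lists, in which a transposase marks accessible DNA, as the peaks that overlap chr16:29960000-30170000 for Hes1, chr3:8560000-8770000 for Hey1 and chr4:122830000-123010000 for Heyl, all in the mouse build mm9. Overlapping peaks of the 28 lists (1 bp or more) were joined to regions, and a region counts as called in each library with a peak there. The windows held 106 of 253225 regions, 42 at Hes1, 33 at Hey1 and 31 at Heyl, and 1049 of the 2048700 peaks. No mm9 annotation was used, so positions are given as distances from the middle of each window and are not assigned to promoters, exons or introns. In the GRCm38.p6 annotation, used for names alone, the 8 genes within 100 kb of Hes1 are long noncoding RNAs and pseudogenes, Hey1 has 1 protein-coding neighbour (LOC115489673), and Heyl has 7 (Ppie, Hpcal4, Nt5c1a, Pabpc4, Bmp8a, Oxct2a and Macf1), so a peak in the Heyl window may lie at another gene.

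The libraries came from 14 groups of 2 libraries each. The converted groups were mouse embryonic fibroblasts (MEF14, isolated from E13.5 embryos) that carry Rosa-rtTA, a doxycycline-inducible Col1a1-tetO-MyoD transgene and the Pax7-nGFP reporter, which marks cells expressing the satellite cell factor Pax7. Cells given 2 µg/ml doxycycline with 5 µM forskolin, 5 µM RepSox and 3 µM CHIR99021, and 10 ng/ml basic FGF are called Dox+FRG. FRG is taken to stand for forskolin, RepSox and CHIR99021, although G is the initial of none of these names. Forskolin raises cyclic AMP, RepSox inhibits the TGF-beta receptor and CHIR99021 inhibits the kinase GSK3. Dox+FRG cells labelled GFP were listed at days 8 and 10. Those without that label are named unsorted, which the labels do not state, and were listed on days 2, 4, 6 and 8. The transgenic MyoD is driven by a doxycycline-responsive promoter, not by that of the endogenous gene. Further MEF14 groups had doxycycline and basic FGF, at the same doses, without the small molecules (Dox, days 4 and 8). Others had the small molecules without doxycycline (FRG, day 8), and for these no doses are listed, of basic FGF either. Untreated day 0 fibroblasts were the baseline. A second set of fibroblasts (MEF10) was labelled MN+FRG or MyoD+FRG at day 6, and the labels do not define MN. The protocol describes the same alleles for all fibroblasts. Activated and quiescent satellite cells came from adult Pax7-nGFP mice of 10 to 12 weeks. The labels do not tell whether paired libraries are separate cultures or animals, and p-values therefore reflect the spread among libraries alone, possibly a technical one. The lists hold positions and no gene values, and the labelled cell types were not checked against markers.

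The lists held 37301 to 134997 peaks. The MEF10 MyoD+FRG libraries stood apart from each other: replicate 1 had the shortest list and replicate 2 a list of 91401 peaks of which the most common width was 500 bp, against 61 to 205 bp in the other lists. These libraries had 14 and 49 peaks over the windows, and neither of them is a side of a comparison below. They do enter the merging of regions and the patterns that name all libraries or no other library. Merged without the wide list, the gained and lost counts moved by at most 1 in the 8 comparisons recomputed. Read numbers are unknown, a peak is present or absent with no height, and in these bulk samples fewer cells with an open site and less opening per cell cannot be told apart.

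**Figure D1:**
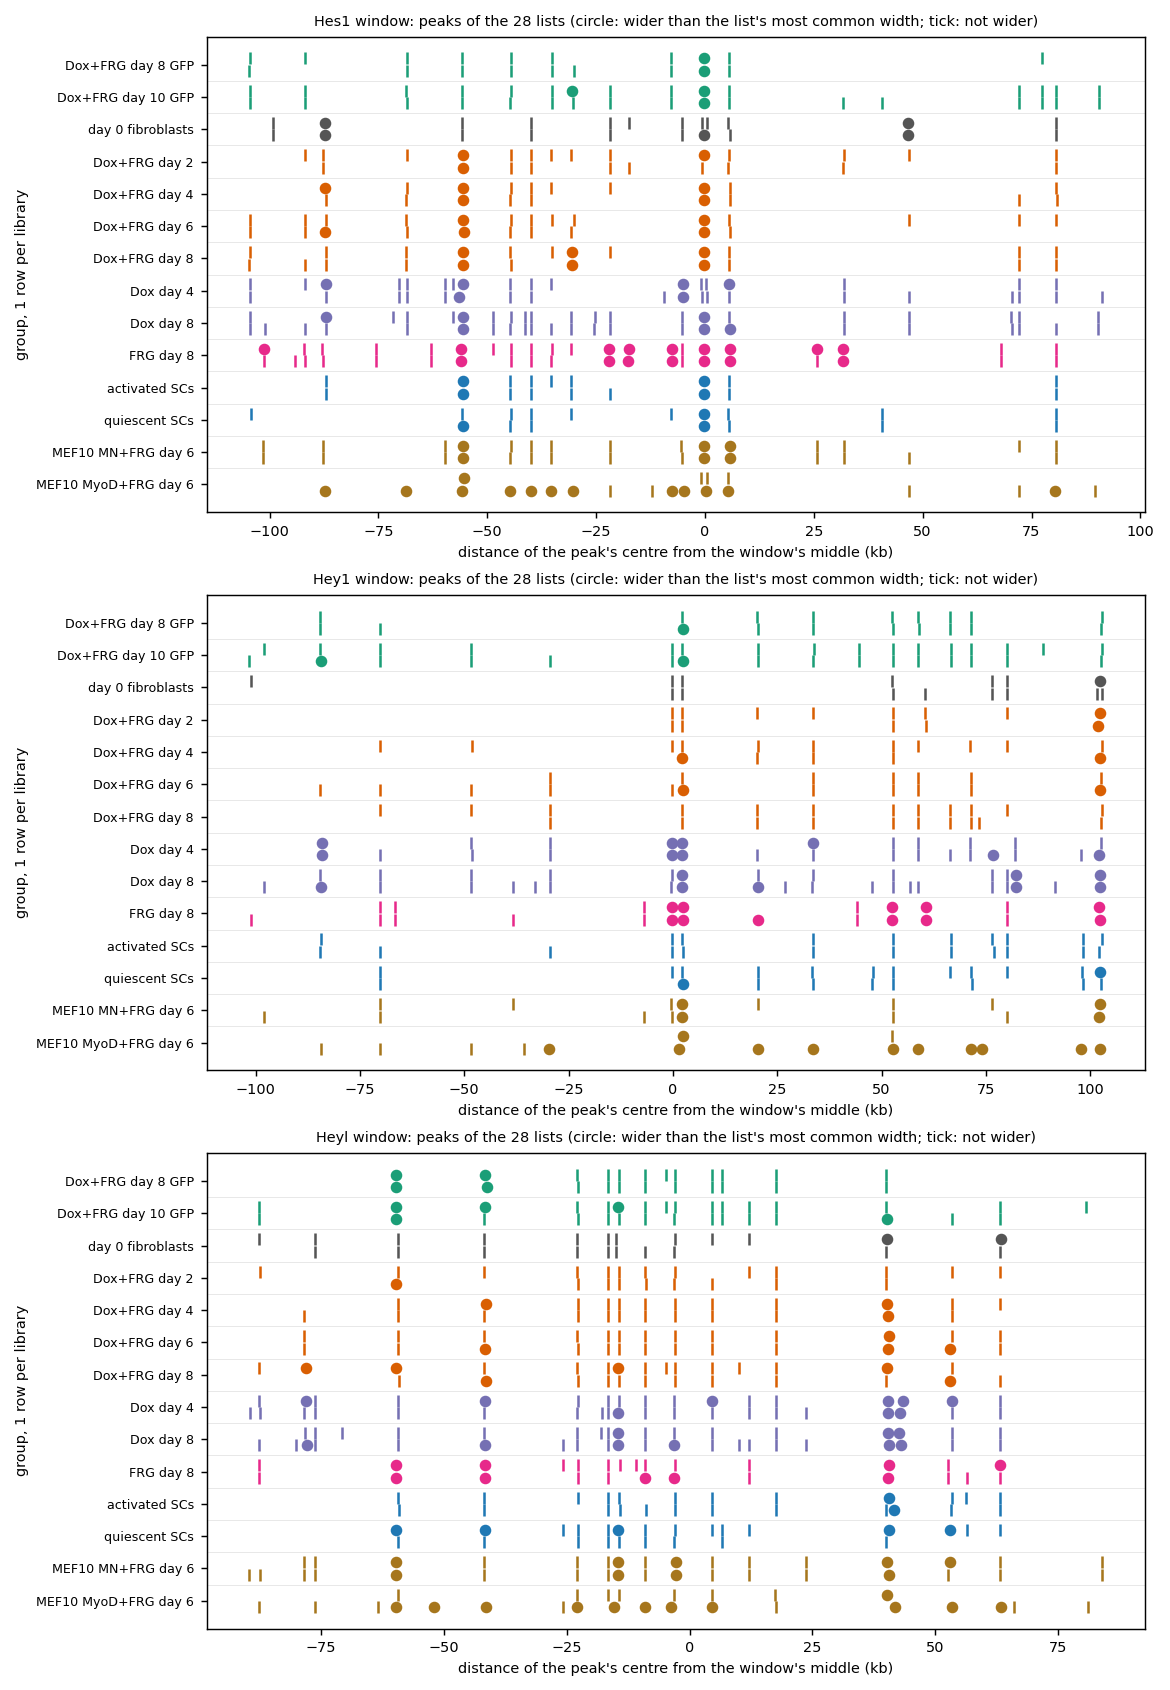
Peaks of every library at the Hes1, Hey1 and Heyl windows, by distance of the peak's centre from the window's middle in kb (x axis), with 1 row per library (y axis). Circles are peaks wider than their list's most common width, ticks are the others. Columns of marks that run through every row are the regions called in all 28 libraries, and the Heyl column at 6.55 kb is filled in GFP and quiescent satellite cell rows only.

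Each locus had a core of regions with a peak in every library. All 28 libraries called 9 of the 106 regions (8.49%), 3 at Hes1, 2 at Hey1 and 4 at Heyl, where 5.55% of all regions were so called. Without the MEF10 MyoD+FRG libraries the core held 10 of 100 regions, against 6.21% of all regions. At Hes1 the core regions were chr16:30062835-30067475, 0.155 kb from the window's middle, chr16:30069586-30071103, 5.34 kb to its right, and chr16:30007047-30010196, 56.4 kb to its left. The first of these held a peak wider than the list's most common width, called extended here, in 23 of 28 libraries, and the one at 56.4 kb in 21. An extended peak is the only sign of peak size in these lists, and over the windows 218 of 1049 peaks (20.8%) were extended, against 17.8% of all peaks.

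At Hey1 the constant regions were chr3:8664510-8668388, 1.45 kb right of the middle, and chr3:8716953-8718409, 52.7 kb to the right, with extended peaks in 15 and 3 libraries. The wide list of MEF10 MyoD+FRG replicate 2 had joined 2 stretches in the first of these. Merged without that list, chr3:8666652-8667887 was called in all 27 other libraries. The neighbouring chr3:8664600-8664975 was missed by 8 of them, among them both Dox+FRG day 8 GFP and both unsorted Dox+FRG day 8 libraries, while both day 10 GFP and both day 0 libraries had it. A further region at the window's edge, chr3:8766232-8768309, was missed by MEF10 MyoD+FRG replicate 1 alone. At Heyl the regions called throughout lay 3.74 kb (chr4:122914839-122917686), 15.4 kb (chr4:122902718-122906580) and 59.7 kb (chr4:122859226-122861331) left of the middle and 41.9 kb right of it (chr4:122959548-122964254). The last had extended peaks in 20 libraries. Merged without the wide list, the regions at 3.74 and 15.4 kb also came apart, into 2 and 3 stretches. Of the first, chr4:122916621-122917454 was called in all 27 other libraries and chr4:122915082-122915292 in 4 libraries. Of the second, chr4:122903266-122903527 was called in all 28 libraries, while both FRG libraries missed chr4:122904996-122905850. Outside the cores the loci varied, and 23 regions were called by 1 library and 17 by 2.

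The number of peaks followed the list's length in part. The Hes1 window held 4 to 23 peaks (median 12) across libraries, the Hey1 window 2 to 21 (median 10) and the Heyl window 8 to 21 (median 13). Per 100 kb, the Hes1 and Heyl windows were denser than the mean of the list in all 28 libraries, by 1.35 to 3.29 times at Hes1 and 1.32 to 3.81 times at Heyl. Hey1 was denser in 26 of 28, the exceptions being FRG day 8 replicate 1 (0.931 times) and MEF10 MyoD+FRG replicate 1 (0.674 times). Because lists differed in length, counts were also expressed per 100000 listed peaks, and these shares carry the comparisons of levels. A share falls as a list lengthens wherever the same regions stay called, so shares do not remove the dependence on length. At Heyl, day 8 GFP libraries had 12 and 11 peaks in lists of 47002 and 43467. FRG libraries had 14 and 12 in lists of 134997 and 133267. Whether list length accounts for differences in share was not tested.

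Hey1 had its highest shares in GFP cells and satellite cells and low ones in FRG, MEF10 MN+FRG and day 0 cells. Day 10 GFP libraries had 25.98 and 24.6 Hey1 peaks per 100000 listed and day 8 GFP libraries 19.1 and 23.0. Quiescent satellite cells had 20.7 and 23.7, activated satellite cells 20.4 and 19.5, and unsorted Dox+FRG day 8 cells 17.9 and 19.8. Lower shares were found in Dox+FRG on day 2 (13.4 and 10.9), day 4 (15.5 and 9.70) and day 6 (10.8 and 16.8), in Dox at day 4 (12.2 and 16.4) and day 8 (12.0 and 16.0), and in day 0 fibroblasts (9.89 and 11.9). FRG day 8 cells had 7.41 and 9.75, MEF10 MN+FRG cells 8.59 and 8.54, and MEF10 MyoD+FRG cells 5.36 and 15.3. Both unsorted day 8 libraries lay above both day 0 libraries. The day 8 GFP range overlapped those of both satellite cell states and of unsorted day 8 cells.

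Hes1 shares were highest in day 10 GFP cells. The day 10 GFP libraries, with 24.4 and 26.2 Hes1 peaks per 100000 listed, lay above all other libraries. Day 2 Dox+FRG cells had 23.4 and 21.7, day 8 GFP cells 21.3 and 20.7, and unsorted Dox+FRG day 8 cells 17.9 and 21.7. Satellite cells had 18.3 and 14.7 when activated and 17.3 and 18.5 when quiescent, Dox cells 20.0 and 19.4 at day 4 and 19.3 and 17.6 at day 8, and day 0 fibroblasts 17.0 and 14.8. The remaining groups, FRG day 8 (15.6 and 15.0) and MEF10 MN+FRG (16.1 and 16.0), lay within the day 0 range, and MEF10 MyoD+FRG cells had 10.7 and 18.6. Day 4 Dox+FRG cells (14.1 and 17.5) and day 6 Dox+FRG cells (21.6 and 15.3) differed widely within the pair.

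Heyl shares were highest in GFP and quiescent satellite cells and lowest in FRG cells. GFP libraries had 25.5 and 25.3 Heyl peaks per 100000 listed at day 8 and 25.98 and 23.1 at day 10, quiescent satellite cells 25.9 and 23.7, and activated satellite cells 24.5 and 19.5. Unsorted Dox+FRG cells had 21.8 and 19.6 on day 2, 16.9 and 23.3 on day 4, 20.1 and 19.8 on day 6, and 22.4 and 23.7 on day 8. In Dox cells there were 18.9 and 20.4 at day 4 and 15.6 and 16.0 at day 8, in MEF10 MN+FRG cells 17.2 and 19.2, in MEF10 MyoD+FRG cells 21.4 and 19.7, and in day 0 fibroblasts 17.0 and 14.8. FRG day 8 cells had 10.4 and 9.004, below every other library, with 14 and 12 Heyl peaks in the longest lists of the series.

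**Figure D2:**
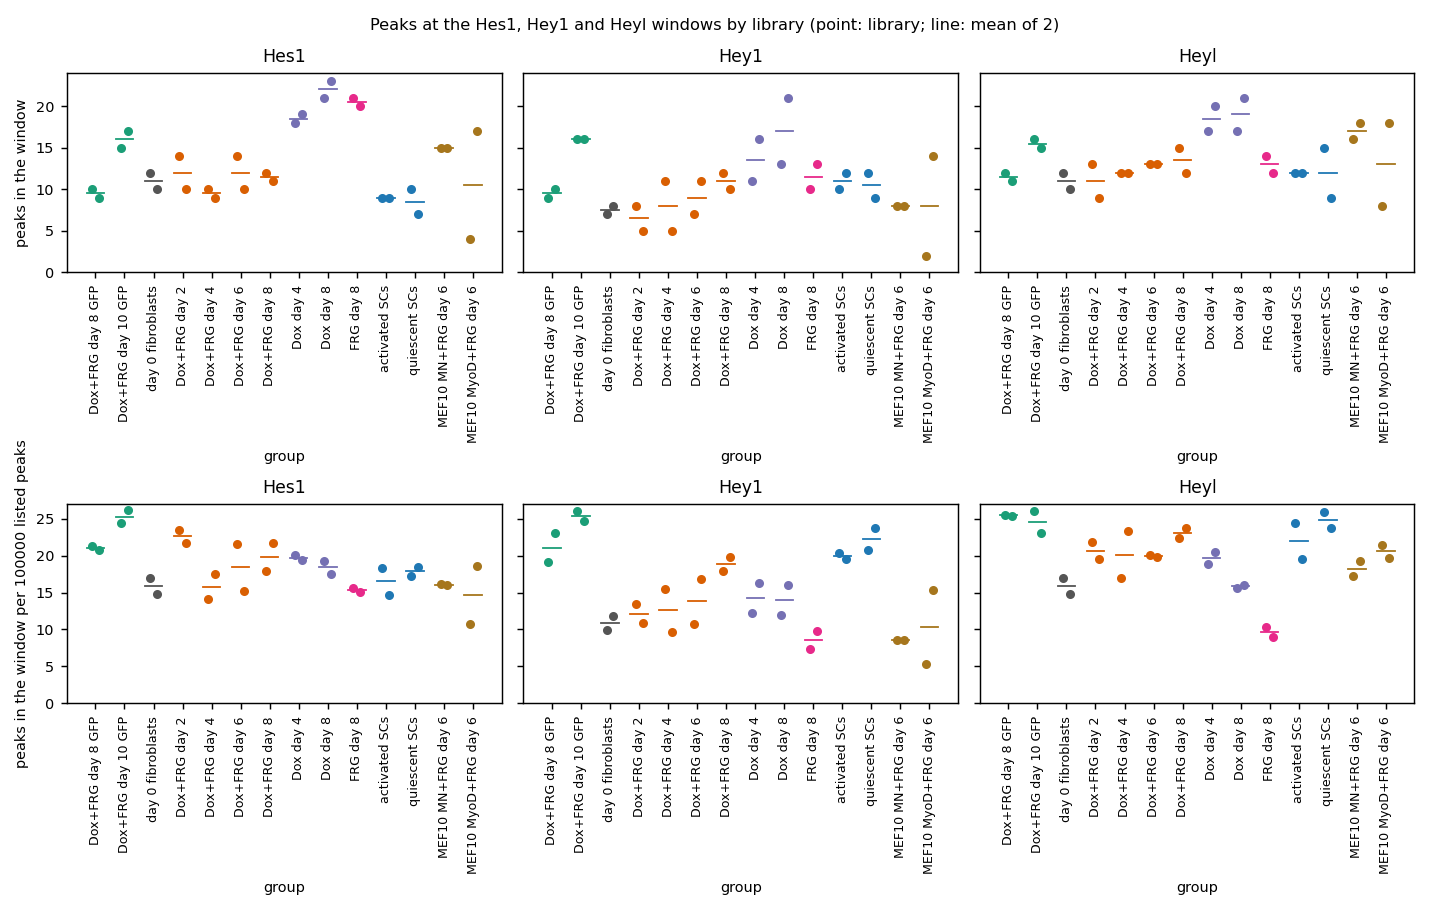
Peaks in the Hes1, Hey1 and Heyl windows by group (x axis), as numbers (upper row) and per 100000 listed peaks (lower row). Points are libraries and lines the means of 2. At Heyl the FRG day 8 libraries have 14 and 12 peaks, within the range of most groups, but 10.4 and 9.004 per 100000, below every other library.

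The first comparison asked whether GFP cells differ from unsorted cells of the same treatment. GFP libraries of days 8 and 10 averaged 23.2 ± 2.96 Hey1 peaks per 100000 listed (SD, n = 4) and unsorted Dox+FRG libraries of days 2 to 8 averaged 14.3 ± 3.71 (SD, n = 8), a difference of 8.85 with 3 of 4 GFP libraries above every unsorted one (p = 0.00606 by a two-sided exact permutation test with 495 splits, adjusted p = 0.0545 over 9 tests). Heyl had 25.0 ± 1.29 in GFP and 20.9 ± 2.26 in unsorted libraries, a difference of 4.04 with 3 of 4 GFP libraries above every unsorted one (exact permutation p = 0.0121, adjusted p = 0.0545). Hes1 had 23.1 ± 2.59 and 19.2 ± 3.44, a difference of 3.97 with 2 of 4 above (exact permutation p = 0.0788, adjusted p = 0.177). None passed after adjustment at 0.05. Hey1 and Heyl had adjusted p-values of 0.0273 and 0.0409 without unsorted day 8 replicate 2, and 0.0409 each without unsorted day 4 replicate 2, while over all 12 such omissions they ran up to 0.109 at both loci (exact permutation tests). In the central 50% of the window, which holds fewer peaks, the Hey1 difference was 2.01 (exact permutation p = 0.0747, adjusted p = 0.168). The sides differ in day, and at day 8 alone Hey1 averaged 21.1 ± 2.73 in GFP and 18.8 ± 1.31 in unsorted libraries (SD, n = 2 each), with overlapping values. An exact permutation test of 2 libraries against 2 cannot reach 0.05, and no other test was run on that day. In numbers of peaks GFP libraries had 9 to 16 at Hey1 and unsorted ones 5 to 12 (exact permutation p = 0.0707, adjusted p = 0.193). Heyl had 11 to 16 and 9 to 15 (exact permutation p = 0.430, adjusted p = 0.493). Hes1 had 9 to 17 and 9 to 14 (exact permutation p = 0.438, adjusted p = 0.493). At day 8 alone Heyl shares were 25.5 and 25.3 in GFP and 22.4 and 23.7 in unsorted libraries. The numbers of Heyl peaks were 12 and 11 in GFP and 15 and 12 in unsorted libraries, whose lists were longer.

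Set against satellite cells, the same GFP libraries gave no difference past the threshold after adjustment. They averaged 23.1 ± 2.59 Hes1 peaks per 100000 listed and the 4 satellite cell libraries, activated and quiescent, 17.2 ± 1.77 (SD, n = 4 each), a difference of 5.94 with all 4 GFP libraries above every satellite cell library (p = 0.0286 by an exact permutation test with 70 splits, the smallest it can give, adjusted p = 0.0857). In numbers of peaks the groups overlapped, with 9 to 17 at Hes1 in GFP and 7 to 10 in satellite cell libraries (exact permutation p = 0.2, adjusted p = 0.36). In the central 50% of the window the Hes1 difference was 0.595 (exact permutation p = 0.6, adjusted p = 0.675). At Hey1 GFP cells had 23.2 ± 2.96 and satellite cells 21.1 ± 1.83, and at Heyl 25.0 ± 1.29 and 23.4 ± 2.74, and neither difference passed (exact permutation p = 0.314 and 0.371, adjusted p = 0.471 and 0.478). The Hey1 difference of 2.09 was 3.44 without day 8 GFP replicate 1 and 1.16 without day 10 GFP replicate 1. The Heyl difference of 1.56 was 0.273 without activated replicate 2 and 2.40 without quiescent replicate 1. These tests reuse the GFP libraries of the first comparison. With 4 libraries on each side, a locus could pass after adjustment only if most of the 9 tests had small p-values. Not passing therefore does not show that the groups are alike.

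Adding the small molecules to MyoD gave no difference past the threshold at any locus. An exact permutation test of 4 libraries against 4 cannot give p below 0.0286. After adjustment a locus could thus pass only if most of the 9 tests had small p-values, and not passing does not show that the groups are alike. Dox+FRG libraries of days 4 and 8 averaged 21.6 ± 3.15 Heyl peaks per 100000 listed and Dox libraries of the same days 17.8 ± 2.31 (SD, n = 4 each; exact permutation p = 0.114, adjusted p = 0.206). Hey1 had 15.7 ± 4.37 and 14.1 ± 2.37, and Hes1 17.8 ± 3.12 and 19.1 ± 1.06 (exact permutation p = 0.571 and 0.543, adjusted p = 0.571 each). In numbers of peaks every Dox+FRG library was below every Dox library at Hes1 (9 to 12, against 18 to 23) and Heyl (12 to 15, against 17 to 21), with exact permutation p = 0.0286 and adjusted p = 0.129 for each, and the Dox lists were longer throughout. The days differed. At day 4 the Dox+FRG minus Dox difference was -3.94 at Hes1, with both Dox+FRG libraries below both Dox libraries, -1.68 at Hey1 and 0.430 at Heyl, the last 2 with overlapping values. At day 8 it was 4.83 at Hey1 and 7.20 at Heyl, with both Dox+FRG libraries above both Dox libraries, and 1.37 at Hes1 with overlapping values. Hes1 had a difference of -0.0507 without Dox+FRG day 4 replicate 1 and -2.59 without Dox+FRG day 8 replicate 2. Hey1 had 3.58 without Dox+FRG day 4 replicate 2 and 0.226 without Dox+FRG day 8 replicate 2.

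**Figure D3:**
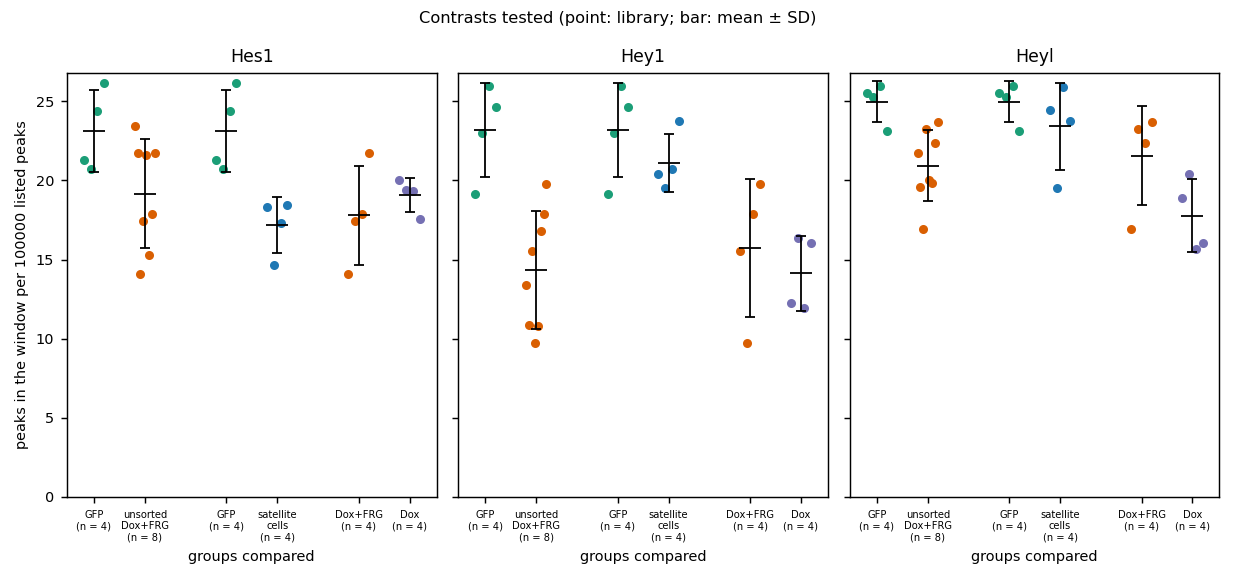
Peaks per 100000 listed (y axis) for the groups compared (x axis) at Hes1, Hey1 and Heyl. Points are libraries and bars the mean ± SD. At Hey1 3 of 4 GFP libraries lie above all 8 unsorted Dox+FRG libraries, and at Hes1 all 4 GFP libraries lie above all 4 satellite cell libraries.

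Region by region, converted cells both gained and lost sites at all of the loci. A gained region had a peak in both libraries of the group named first and in neither of the group it is set against, and a lost region the opposite. Leaving out a library loosens this rule, so counts given without 1 library can only stay the same or rise. Against day 0 fibroblasts, unsorted Dox+FRG day 8 cells gained 13 and lost 6 of the 50 regions called in any of the 4 libraries (26% and 12%), where 14.2% and 21.8% of all regions were gained and lost. Hes1 had 5 gained and 4 lost of 18 regions (27.8% and 22.2%), Hey1 6 and 1 of 16 (37.5% and 6.25%), and Heyl 2 and 1 of 16 (12.5% and 6.25%). Day 10 GFP cells gained 21 and lost 7 of 59 regions against day 0 (35.6% and 11.9%, against 18.0% and 21.8% of all regions). Day 8 GFP cells gained 13 and lost 11 of 47 (27.7% and 23.4%, against 12.1% and 30.2% of all regions). These comparisons share the day 0 libraries. An exact permutation test of 2 libraries against 2 cannot reach 0.05 and no other test was run, so the windows' shares are descriptions.

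The regions of unsorted day 8 cells appeared over several days. Of the 29 regions called in both unsorted day 8 libraries, 14 were already called in both day 0 libraries, 3 were first called by both libraries on day 2, 5 on day 4, 5 on day 6 and 2 on day 8. These 15 include 2 at Heyl that 1 day 0 library called, which are not gains as defined above. At Heyl none was first called after day 4, while at Hey1 3 came at day 6 and 1 at day 8. The gain of day 2 at Hes1 that day 8 cells kept was chr16:30019770-30020823, 44.7 kb left of the middle. Neither day 0 library called it and every other library did except MEF10 MyoD+FRG replicate 1. It was thus also called after FRG and Dox and in both satellite cell states. The other day 2 gain at Hes1, chr16:30096577-30096937, was called by no unsorted Dox+FRG library of days 4, 6 and 8. All Dox, FRG and MEF10 MN+FRG libraries and day 10 GFP replicate 2 called it. At Heyl, chr4:122937339-122937838, 17.6 kb right of the middle, was called by all Dox+FRG, GFP, Dox, activated satellite cell and MEF10 MyoD+FRG libraries and by no day 0, FRG, quiescent or MEF10 MN+FRG library. Later gains at Hey1 were chr3:8698170-8698940, 33.6 kb right of the middle, called in every MEF14 library given doxycycline except Dox+FRG day 2 replicate 2 and in all satellite cell libraries, and chr3:8736077-8736730, 71.4 kb right, called by both libraries from day 6 on. Neither was called by a day 0, FRG or MEF10 MN+FRG library.

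In GFP cells, 13 regions were called in all 4 libraries and in neither day 0 library, out of 59 called in any of these 6 (22.0%, against 9.88% of all regions): 5 at Hes1, 6 at Hey1 and 2 at Heyl. Beside the sites above, they included chr16:29995705-29996766, 68.8 kb left of the Hes1 middle, which all Dox libraries called and no satellite cell, FRG or MEF10 MN+FRG library did. Another was chr16:30029230-30030150, 35.3 kb left of the Hes1 middle, called by both FRG and both MEF10 MN+FRG libraries and, among unsorted Dox+FRG cells, by replicate 1 of each day. Activated satellite cells, Dox day 4, Dox day 8 and MEF10 MyoD+FRG cells each had it in 1 library. At Hey1, chr3:8684896-8685796, 20.3 kb right of the middle, was called by all GFP and both quiescent libraries, both unsorted day 4 and both day 8 libraries and neither activated library. Both Dox day 8 libraries called it too, as did 1 library each of Dox+FRG day 2, Dox day 4, FRG day 8, MEF10 MN+FRG and MEF10 MyoD+FRG. Day 10 GFP cells had 10 gained and 0 lost of 49 regions against day 8 GFP cells (20.4%, against 13.1% of all regions gained and 0.420% lost). The day 10 lists were also longer, with 61575 and 64947 peaks, against 47002 and 43467 at day 8. Both day 10 GFP libraries and no other library called chr16:30155390-30155580 and chr3:8709429-8709621, 2 of 49 regions called in day 10 GFP cells (4.08%, against 0.719% of all regions called there), a pattern picked after its values were seen. Close by, without overlap, Dox day 8 libraries called chr16:30155306-30155387 (replicate 1) and chr16:30155214-30155301 (replicate 2). Both FRG day 8 libraries called chr3:8709112-8709181. These neighbouring regions were narrower, and they count as separate because only overlapping peaks were joined.

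Some fibroblast sites were missing from GFP cells at each locus, over the windows together at a lower share than that of all regions. Both day 0 libraries and no GFP library called 7 of 59 regions (11.9%, against 21.1% of all regions). These were 5 of 23 regions at Hes1 (21.7%, near the share of all regions), 1 of 20 at Hey1 (5%) and 1 of 16 at Heyl (6.25%). The one nearest the Hes1 middle, chr16:30059278-30060871 at 4.93 kb to its left, was absent from all Dox+FRG, GFP and satellite cell libraries, and all Dox, FRG and MEF10 MN+FRG libraries and MEF10 MyoD+FRG replicate 2 called it. The Heyl site chr4:122843499-122843998, 76.3 kb left of the middle, followed the same course except that FRG cells did not call it. At 39.9 kb left of the Hes1 middle, chr16:30024655-30025557 was kept in Dox+FRG cells at days 2, 4 and 6, was called by neither unsorted day 8 library and no GFP library, and was called in all satellite cell, Dox and FRG libraries. The Hey1 site chr3:8741417-8741944 was called in both day 0, both activated satellite cell and both Dox day 8 libraries and in no Dox+FRG library.

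At day 8, GFP and unsorted cells differed at 8 sites. Day 8 GFP cells gained 3 and lost 5 of 44 regions against unsorted day 8 cells (6.82% and 11.4%, against 3.57% and 13.3% of all regions), and 23 were called in all 4 libraries (52.3%, against 42.1% of all regions). Without unsorted day 8 replicate 2 the lost count was 11. The gained sites were 1 per locus. At Hes1, chr16:30057085-30057800, 7.56 kb left of the middle, was called by all GFP libraries, both FRG libraries, quiescent replicate 1 and MEF10 MyoD+FRG replicate 2. At Hey1, chr3:8580318-8581229, 84.2 kb left, was called by all GFP, activated satellite cell and Dox libraries, by unsorted day 6 replicate 2 and by neither quiescent library. At Heyl the gained site was chr4:122926420-122926678, 6.55 kb right of the middle. Among the lost sites, chr16:29976846-29978433, 87.4 kb left of the Hes1 middle, was called by every unsorted MEF14 library and both activated libraries and by no GFP or quiescent library. It was the 1 window region of 59 with both unsorted day 8 and both activated but no GFP or quiescent libraries (1.69%, against 1.46% of all regions, a pattern picked after its values were seen).

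Activated and quiescent satellite cells differed at 9 of 42 regions. Activated cells gained 4 and lost 5 (9.52% and 11.9%, against 17.2% and 10.8% of all regions), and 16 were called in all 4 libraries (38.1%, against 27.5% of all regions). Activated cells gained 10 without quiescent replicate 1 and lost 9 without quiescent replicate 2. Of the satellite cell states, activated cells alone called the Hes1 site at 87.4 kb left, the Hey1 sites at 84.2 kb left and 76.7 kb right, and the Heyl site at 17.6 kb right of the middle. Quiescent cells alone called chr16:30105621-30105839 at Hes1, the Hey1 sites 20.3 and 71.4 kb right of the middle and chr3:8712627-8713012 between them, and the Heyl site at 6.55 kb. That Heyl site, 259 bp wide, was called by both quiescent, both day 8 GFP and both day 10 GFP libraries and by none of the other 22, as plain peaks of the most common width. This pattern was singled out after its values were seen, and it held for 0.0474% of all regions (120 of 253225). The Hey1 site at 71.4 kb was called in all GFP and both quiescent libraries too, and also in unsorted Dox+FRG cells at days 6 and 8 and in Dox cells at day 4. The Hes1 site of quiescent cells was called by day 10 GFP replicate 2 and by no other converted or fibroblast library.

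Set against satellite cells, day 10 GFP cells had shares of window regions somewhat above those of all regions for gains and below them for losses. These shares were not tested. Against quiescent cells day 10 GFP cells gained 13 and lost 3 of 54 regions (24.1% and 5.56%, against 20.2% and 7.31% of all regions). Against activated cells they gained 15 and lost 4 of 54 (27.8% and 7.41%, against 19.1% and 11.7% of all regions). Against quiescent cells the gained count was 21 without quiescent replicate 1, and the lost count 5 without quiescent replicate 2. In the comparison of all 4 libraries 7 of the 13 gained regions lay at Hes1, which held 18 of the 54 regions. Hes1 gains were thus 38.9% of its regions, against 20.2% of all regions. Hey1 gained 4 of 19 (21.1%) and Heyl 2 of 17 (11.8%) in that comparison. Against activated cells Hes1 had 7 gained of 19 regions (36.8%, against 19.1% of all regions), Hey1 5 of 19 (26.3%) and Heyl 3 of 16 (18.75%). The region chr3:8762583-8763307, 97.9 kb right of the Hey1 middle, was called by all satellite cell libraries and by no day 0, Dox+FRG, GFP or FRG library. Dox day 4 replicate 2 and MEF10 MyoD+FRG replicate 2 also called it. Merged without the wide list, its stretch chr3:8763039-8763307 was called by the 4 satellite cell libraries and by none of the other 23 lists merged. The Dox day 4 replicate 2 peak lay in the neighbouring stretch chr3:8762859-8762937. Quiescent replicate 2 had the shortest MEF14 or satellite cell list, with 37910 peaks.

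MyoD alone and the small molecules alone each added sites at about the share of all regions. Dox day 8 cells gained 20 and lost 1 of 70 regions against day 0 (28.6% and 1.43%, against 28.9% and 4.83% of all regions), and FRG day 8 cells gained 15 and lost 4 of 53 (28.3% and 7.55%, against 33.2% and 3.46% of all regions). Dox day 8 cells gained 36 without Dox day 8 replicate 1, and lost 2 without Dox day 8 replicate 2 or day 0 replicate 1 and 3 without day 0 replicate 2. Of the FRG gains 10 were among 24 regions at Hes1, 4 among 13 at Hey1 and 1 among 16 at Heyl, and of the Dox gains 10 were among 27, 7 among 22 and 3 among 21. These comparisons use the same day 0 libraries. All 4 Dox libraries and neither day 0 library called 13 of 78 regions (16.7%, against 16.8% of all regions). Both Dox day 8 libraries, but no day 0 or FRG library, called 13 of 81 regions (16.0%, against 14.3% of all regions, a pattern picked after its values were seen), 6 of them at Hes1, 5 at Hey1 and 2 at Heyl. Both FRG libraries and no other library called 5 regions, 3 at Hes1 and 2 at Hey1, of 48 called in FRG cells (10.4%, against 14.4% of all regions, a pattern picked after its values were seen). Dox+FRG day 8 cells gained 2 and lost 12 of 69 regions against Dox day 8 cells (2.90% and 17.4%, against 1.38% and 28.2% of all regions), with 8 of the lost sites among the 25 regions at Hes1. Leaving out Dox day 8 replicate 1 gave 25 lost, and leaving out Dox day 8 replicate 2 gave 4 gained. The 2 gained sites were both at Hey1, at 66.5 and 71.4 kb right of the middle. Against FRG day 8 cells, Dox+FRG day 8 cells gained 10 and lost 15 of 62 regions (16.1% and 24.2%, against 6.79% and 42.1% of all regions), and 10 of the lost sites were among the 25 regions at Hes1.

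**Figure D4:**
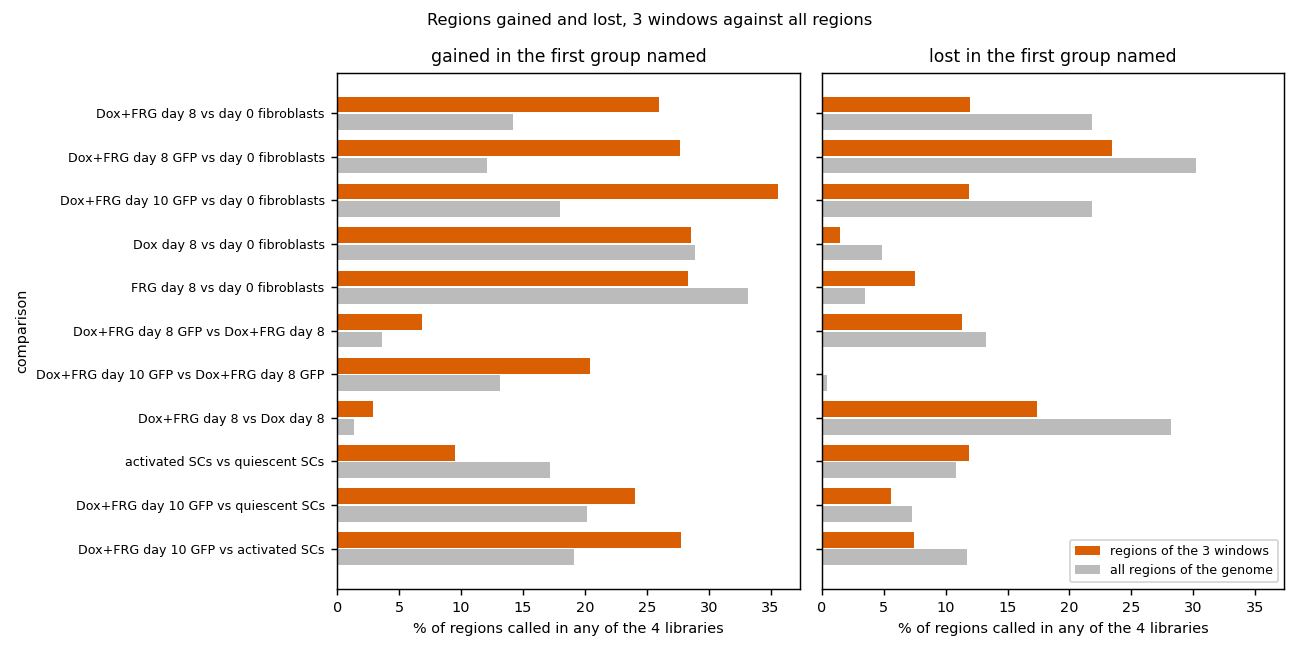
Shares of regions gained and lost (x axis, % of regions called in any of the 4 libraries) in 11 comparisons (y axis), for the regions of the Hes1, Hey1 and Heyl windows and for all regions. Against day 0, day 10 GFP cells gained 35.6% of window regions, against 18.0% of all regions, while Dox day 8 cells gained 28.6% and 28.9%.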

How the data were processed

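The deposited files are other data than counts or signal: each holds chromosome, start and end of the peaks of 1 library. The authors' tools were BWA and HOMER on mm9, per the submitters' processing notes. No source used here gives versions, the peak threshold, read filters or a correction for the transposase's offset. Reactions took 60000 cells and 13 PCR cycles, per the labels' protocols. BED starts (from 0) were raised by 1 for printing. No peak was left out. Depth is unknown, so no counting interval is given.

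Peaks were merged, called and counted in Python 3.11.15 with NumPy 2.4.6, and the counting was tested on simulated lists. These were made from well separated peaks of a day 0 list, so adjacent peaks, lists of differing widths and the wide list were not tested. The 9 locus tests (3 contrasts, 3 loci) were two-sided exact permutation tests on peaks per 100000 listed, with Benjamini-Hochberg adjustment and a threshold of 0.05, with each library as a unit. Regions named are those called in all libraries, and at most 3 per locus that separate the satellite cell states, GFP from day 0, Dox from day 0 or FRG from day 0, ranked by libraries; other regions named in the text were picked after their values were seen. Windows, lists and tests were chosen with earlier results of these data known. Alternatives were raw numbers, the chromosome's peaks as scale, extended peaks, the middle of the window, a replicate block, a stricter overlap, another merging and leaving out each library. Other Notch pathway genes were not analysed here.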

Additional observations from a re-analysis of the deposited data

How the results depend on the processing

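The 9 locus tests kept their direction per 1000 peaks of the chromosome, in the middle of the windows, with regions in place of peaks (chosen after seeing the data) and with the replicate block, and none of these passed 0.05. Sizes moved most in the middle of the windows, where the Hes1 difference of GFP minus satellite cells was 0.595, against 5.94 in the whole window, and the Hey1 difference of GFP minus unsorted cells 2.01, against 8.85. With the replicate block the differences were the same and the lowest adjusted p was 0.08 (exact permutation test), for Hey1 in GFP against unsorted cells, a difference of 8.85. Same-numbered libraries deviated together little: over the 45 pairs of the groups used in the 9 tests, the correlation ran from -0.0388 to 0.109. The 1 value over 0.1 was between unsorted Dox+FRG cells of days 4 and 8. Day 0, FRG and MEF10 groups were not in this check.

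In raw numbers of peaks the Dox+FRG minus Dox difference turned to -5.75 at Hey1 and -6 at Heyl. With extended peaks alone it turned to 42.7 at Hes1 and -5.62 at Hey1, and Hes1 turned to -15.6 in GFP minus unsorted cells and -13.3 in GFP minus satellite cells. The cause was not tested, and the most common width, which sets what is extended, differed between lists.

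Leaving out 1 library at a time, the GFP minus unsorted difference ranged over 7.92 to 10.2 at Hey1 and 3.47 to 4.67 at Heyl, and each passed 0.05 in 2 of 12 such tests. The other 7 tests kept their direction and did not pass. GFP minus unsorted cells ranged over 2.96 to 4.78 at Hes1. Dox+FRG minus Dox ranged from -2.59 to -0.0507 at Hes1, 0.226 to 3.58 at Hey1 and 3.10 to 5.37 at Heyl. GFP minus satellite cells ranged over 4.93 to 6.75 at Hes1, 1.16 to 3.44 at Hey1 and 0.273 to 2.40 at Heyl.

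Extended peaks alone left at most 4 regions gained or lost in each comparison except FRG day 8 against day 0, with 11 gained. Gained and lost counts were then 2 and 2 for Dox+FRG day 8 against day 0, 1 and 2 for day 10 GFP against day 0, 4 and 1 for Dox day 8 against day 0, 11 and 2 for FRG day 8 against day 0, 0 and 2 for GFP against unsorted day 8, 0 and 0 for activated against quiescent cells, 0 and 0 for day 10 GFP against quiescent cells, and 1 and 3 for Dox+FRG against Dox day 8. The regions in all 28 libraries were 0, those in all GFP and no day 0 libraries 1, and those in both day 0 and no GFP libraries 2.

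Without 1 library the counts were 21 to 36 gained and 1 to 3 lost for Dox day 8 against day 0, 5 to 11 lost for GFP against unsorted day 8, 4 to 10 gained and 5 to 9 lost for activated against quiescent cells, 13 to 21 gained and 3 to 5 lost for day 10 GFP against quiescent cells, and 2 to 4 gained and 13 to 25 lost for Dox+FRG against Dox day 8. The omission loosens the calling rule, so these counts could not fall, and the direction of their change was fixed. A stricter overlap of 50% and merging without the wide list left every count within 1.5 times. Read depth is unknown, so an absent peak may be an undetected one.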
